A study of Mus musculus with 20 samples.

Results

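The genes for the proteins of the cytosolic ribosome were followed in the uteri of 20 mice. Members were chosen by gene symbol, taking every Rpl and Rps gene of the standard numbering, its a, x, y and l forms, the P stalk genes Rplp0, Rplp1 and Rplp2, and Rpsa, without entries named as pseudogenes by a -ps suffix. A mean of at least 10 TPM over the 20 libraries was also required, where TPM is the share of a gene in its library after correction for transcript length, scaled to the same total in each library. Of 83 genes with such a symbol, 79 passed this limit, out of 45777 genes in the table. They comprised 32 genes of the small subunit, 44 of the large subunit and the 3 P stalk genes. All 79 were above 0 TPM in every library and therefore stood among the 18706 genes tested. Since the mean level chose the members, their levels are given here as a description, and the rule itself uses no difference between groups.

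A ribosome joins a small subunit, which reads the mRNA, to a large subunit, which forms the peptide bonds, and each ribosomal protein is needed in about equal number. The P stalk proteins extend from the large subunit and recruit the elongation factors. Ribosomal protein mRNAs belong to the TOP mRNAs, which begin with a run of pyrimidines (C or T) and whose translation is controlled by mTORC1 and Larp1. The proteins are assembled with ribosomal RNA in the nucleolus by ribosome biogenesis factors, many of them targets of Myc. Ribosomal protein genes are also widely used as reference genes in uterine PCR, and Rplp0 served the study in that way together with Gapdh.

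All mice were wild-type B6D2F1 females of 8 to 12 weeks that had been mated, and the uterus was taken at 18:00 on day 3.5 of pregnancy, before embryos attach. Control mice received no RU486. RU486 (mifepristone, an antagonist of the progesterone and glucocorticoid receptors) was injected subcutaneously on the morning of day 3.5 into the mice of the other groups, and mice given RU486 alone formed the implantation failure (IF) group. The PBMC group had in addition received peripheral blood mononuclear cells of non-pregnant mice in the uterine horns on day 1.5, and the PBMC-hCG group received such cells after culture with human chorionic gonadotropin (hCG). Each group had 5 mice with 1 mRNA library each, so the spread between libraries is the spread between mice. The medium group of the study is not among these 20 libraries, and cells, hCG carried over and the injection itself cannot be told apart from these groups. The comparisons ask whether RU486 was followed by a shift of the ribosomal protein mRNAs and whether PBMC with or without hCG was followed by another.

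The libraries were those of uterine wall: summed over each marker list, epithelium lay between 772 and 1520 TPM, stroma between 4050 and 9300, myometrium between 5030 and 11500 and endothelium between 316 and 590, while the oocyte and embryo list never exceeded 0.966 TPM. Lymphocyte markers summed to 82.2 to 158 TPM, myeloid markers to 623 to 967, plasma cell markers to 441 to 3670, red cell markers to 342 to 1800, ovary and oviduct markers to 9.05 to 30.4 and proliferation markers to 122 to 631. Adipose markers summed to 89.2 TPM in control replicate 2 and to at most 12.4 TPM in the mice of the other groups. That mouse stood apart from the other controls also in stroma (4050 against 7090 to 7520 TPM) and proliferation (122 against 346 to 631 TPM), and results that rest on it are given with and without it. In these bulk samples, fewer cells of a type and less RNA per cell cannot be told apart.

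RefSeq start sites were held for 57 of the 79 members, on GRCm38.p6, and the sequence around them showed what the members share outside the coding part. A run of at least 8 pyrimidines within 40 bases of the annotated start was found in 41 of 57 members (71.9%) against 29.2% of 27025 promoters. The letters CGGAAG, the core of sites of ETS factors, stood between 250 bases before and 50 after the start in 40 of 57 members (70.2%) against 17.2% of all promoters of the same length. TATAAA was held by 5 (8.77%) against 14.2%, and AAGATGG, the core of YY1 sites, by 8 (14.0%) against 6.48%. The motifs were searched on both strands and the pyrimidine run on the strand of the gene, and matches of CGGAAG and AAGATGG can overlap in the letters AAG. A match is no more than a description of these letters. The windows printed here run from 50 bases before to 10 after the annotated start and are read 5′ to 3′ on the strand of the gene, with pyrimidine runs of at least 8 bases in capitals. Rpl22 (chr4:152325676-152325735, plus strand), Rpl13a (chr7:45128736-45128795, minus strand), Rpl5 (chr5:107900478-107900537, plus strand), Rps25 (chr9:44407664-44407723, plus strand) and Rps3 (chr7:99483700-99483759, minus strand) are shown because they rose in PBMC-hCG against IF and had a RefSeq window (5 of the 8 genes that rose), Rps27l (chr9:66946036-66946095, plus strand) because it fell against control, Rplp0 (chr5:115559417-115559476, plus strand) as the PCR reference, and Rpl7a (chr2:26910757-26910816, plus strand) for its run of 21 pyrimidines.
Rpl22: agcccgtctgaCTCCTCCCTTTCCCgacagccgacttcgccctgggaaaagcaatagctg
Rpl13a: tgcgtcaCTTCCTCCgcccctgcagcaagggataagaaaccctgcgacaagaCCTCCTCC
Rpl5: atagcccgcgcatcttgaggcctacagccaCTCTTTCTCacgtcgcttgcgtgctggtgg
Rps25: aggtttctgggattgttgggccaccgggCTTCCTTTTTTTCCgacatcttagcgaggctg
Rps3: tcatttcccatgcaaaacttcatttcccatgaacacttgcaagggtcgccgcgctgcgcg
Rps27l: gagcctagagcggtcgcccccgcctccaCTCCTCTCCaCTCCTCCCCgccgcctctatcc
Rplp0: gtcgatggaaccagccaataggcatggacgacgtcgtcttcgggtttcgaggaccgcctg
Rpl7a: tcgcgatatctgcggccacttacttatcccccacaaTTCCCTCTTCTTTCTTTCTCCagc
Of the 5 genes that rose, 4 carried a run in this window and Rps3 carried none, while Rps27l, which fell, carried a pair of runs and Rplp0 none. In these 60-base windows 30 of 57 members held a run. Their median log2 fold change from IF to PBMC-hCG was 0.124, against 0.123 in the 27 members without one.

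By RefSeq positions on the same build, the members lay on 19 chromosomes, with 14 on chromosome 7 and 4 on X. In GENCODE, 77 of the 79 were protein-coding, and Rpl6l (chr10:111125836-111126780) and Rps4l (chr6:148354656-148355596) were processed pseudogenes in spite of their symbols. Transcripts were short, with a median spliced length of 878 bases over these 77 genes and 49 of them under 1000 bases. Small nucleolar RNAs lay inside 29 members, 56 in all and up to 5 in 1 gene. Their median change from IF to PBMC-hCG was 0.123, against 0.124 in the 50 members without one. Rpl13a, for example, enclosed Snord32a, Snord33, Snord34 and Snord35a.

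**Figure D1:**
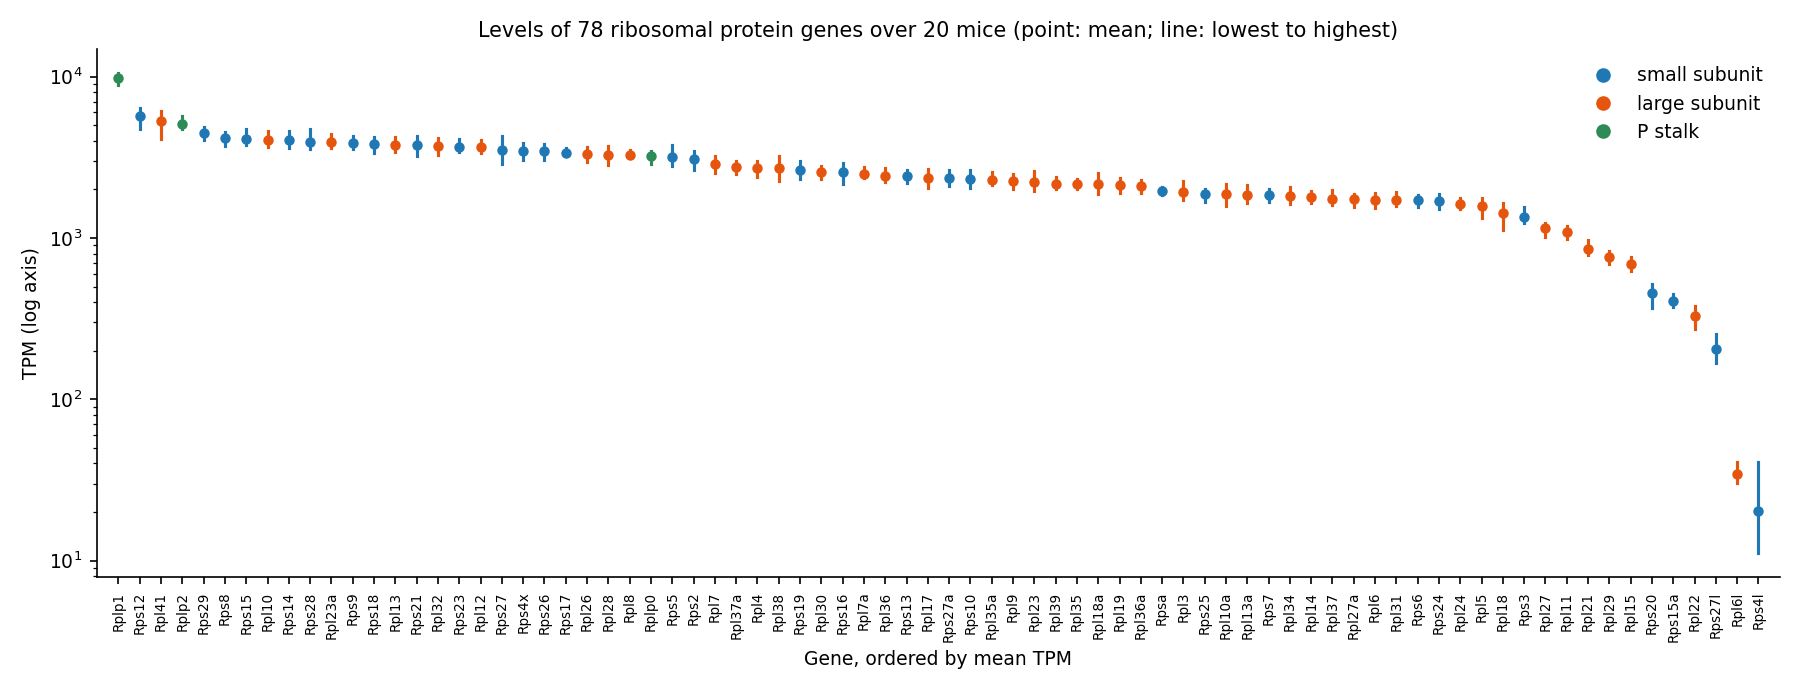
Mean TPM of each of 78 of the 79 ribosomal protein genes over 20 mice (point) with its lowest and highest library (line) on a log axis, coloured by subunit. Of all 79 members, 66 lay between 1000 and 5000 TPM, Rplp1 stood highest, and Rpl6l and Rps4l lay far below the others.

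Most members were present at similar levels. The median of their mean levels was 2342 TPM, 66 members lay between 1000 and 5000 TPM, 61 were among the 100 highest genes of the table and 31 among the 50 highest. Rplp1, a protein of the P stalk, was highest with 9822 TPM and ranked 3 among all genes. It was followed by Rps12 with 5714 TPM, Rpl41, the shortest of the ribosomal proteins, with 5342 TPM (4118 to 5256 in control, 4720 to 5564 in IF, 5395 to 6083 in PBMC and 5192 to 6081 in PBMC-hCG), and Rplp2 with 5090 TPM. The 10 highest members made up 24.87% of the TPM of all members. At the other end, Rps27l (a paralog of Rps27 that p53 induces) had 204.8 TPM, Rpl22 330.3 TPM, Rpl6l 34.5 TPM and Rps4l 20.2 TPM. The last 2 were the members nearest to the limit of 10 TPM from above, and below it lay Rpl32l with 1.77, Rpl3l with 0.29 and Rpl39l with 0.0499 TPM and Rpl10l, listed at 0. Members with near-identical processed pseudogenes are uncertain in their absolute level, since the counting could split reads between copies. The 224 pseudogene entries with a -ps suffix, 223 of them of 56 members, together held 4036 to 4825 TPM, which was 2.01 to 2.16% of the TPM of members and these pseudogenes, and the most lay with Rpsa (869 TPM in 7 entries) and Rpl3 (638 TPM in 2 entries). Pseudogenes under other names are not in this sum, and Rpl6l and Rps4l count as members in it.

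The members varied little between mice of a group and moved together. Their within-group coefficient of variation (SD over mean) had a median of 4.96%, against 15.9% for all tested genes and 10.7% for tested genes with a mean of at least 10 TPM, and it was under 10% in 76 of 79 members. Over the 20 mice, the correlation of a member with the mean of the other members had a median of 0.848, and 0.85 after group means were removed, when 69 members exceeded 0.5. This is a description over 20 libraries in which all values share 1 total. Rps19, Rpl26 and Rpl30 followed the other members most closely, with r of 0.964, 0.955 and 0.949. Rps27l ran against them with r of -0.712, and Rps2 and Rps4l followed them least after it, with r of -0.167 and -0.102. Rps27l thus tended to be high in the mice in which the other members were low.

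Summed over the 79 members, ribosomal protein mRNA made up between 18.83 and 21.96% of all TPM in these uteri. The share was 19.63, 21.63, 19.69, 20.47 and 18.83% in the control mice (20.05% ± 1.06, SD, n = 5) and 20.43, 19.5, 20.94, 19.36 and 19.19% in the IF mice (19.88% ± 0.761). It was 19.88, 20.6, 19.86, 21.37 and 19.51% in the PBMC mice (20.24% ± 0.744) and 20.4, 21.35, 21.96, 21.65 and 21.93% in the PBMC-hCG mice (21.46% ± 0.641). Of the PBMC-hCG mice, 4 lay above every IF mouse, and replicate 1 lay within the IF range. The control, IF and PBMC ranges overlapped almost wholly, and control replicate 2 was the highest control (mean of the other controls 19.65%). The summed small subunit genes stood to the large subunit genes with the P stalk as 0.747 ± 0.00877 in control, 0.753 ± 0.00595 in IF, 0.749 ± 0.00638 in PBMC and 0.755 ± 0.00398 in PBMC-hCG to 1. No test is given for the sum, because it adds up members that were chosen with results known. As TPM adds to the same total in each library, a higher share of the members means a lower share of other transcripts.

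**Figure D2:**
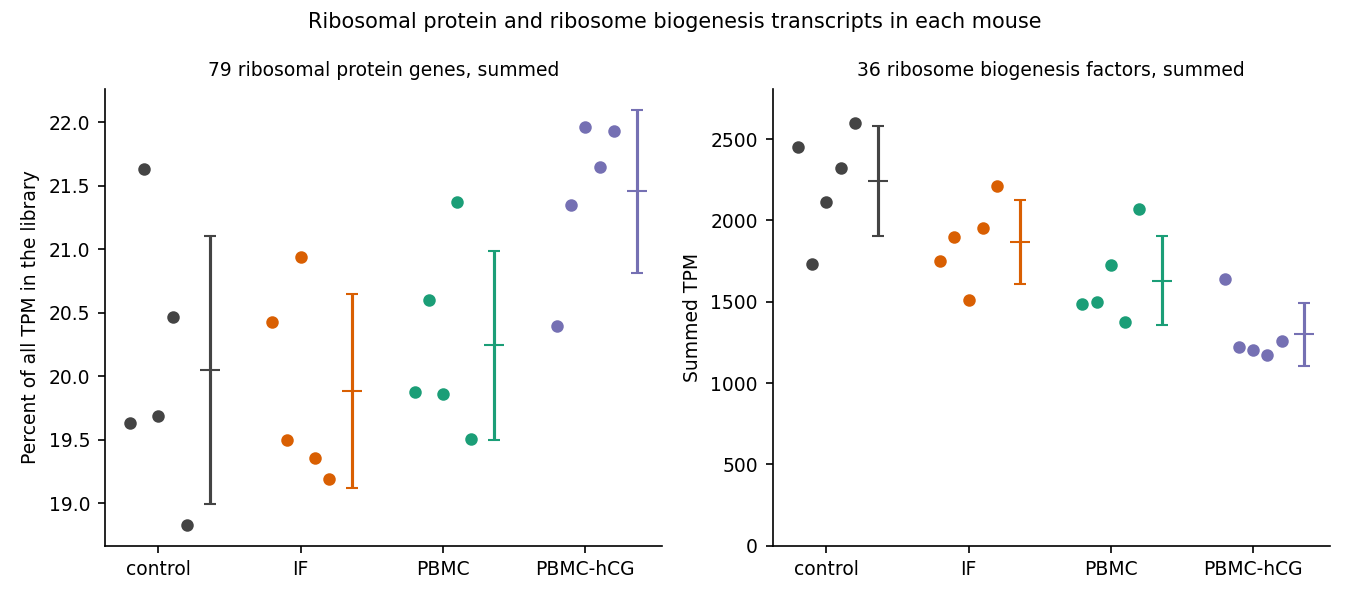
Left, the summed share of 79 ribosomal protein genes in percent of all TPM in each mouse (the axis does not start at 0); right, the summed TPM of 36 ribosome biogenesis factors in the same mice. Points are mice, and dashes with bars are the mean and SD of 5 mice. The share was 20.4 to 21.96% in the PBMC-hCG group against 19.19 to 20.94% in the IF group, while the biogenesis factors had a median sum of 2321 TPM in control and 1224 TPM in PBMC-hCG.

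No ribosomal protein gene passed the test after RU486 alone. In the comparison of IF with control, 0 of 79 members rose and 0 fell at an adjusted p under 0.05 (limma, Benjamini-Hochberg over all tested genes), while 13.4% of all tested genes rose and 8.53% fell. At an unadjusted p under 0.05, 0 were higher and 2 were lower (Rps27l and Rps4l), against 19.6% and 14.2% of all genes. Groups without overlap were found in 0 members, against 8.55% of genes on the higher and 4.27% on the lower side. The median log2 fold change was -0.02 over the members and 0.02 over all genes. The 95% interval of the fold change lay within 1.5-fold of no change in 78 of 79 members (all but Rps4l), against 55.9% of all tested genes. Without control replicate 2, the count of members that passed was 2, both lower, and without IF replicate 5 it was 1. The share of all tested genes in these fits was not counted. By the rule of the study, a fold change of at least 2 with an unadjusted p under 0.05, 0 members and 4.03% of tested genes differed.

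Nor did any member pass after PBMC cultured without hCG. Comparing PBMC with IF, 0 of 79 members passed by limma in each direction, as did 0% of all tested genes, and 2 members were higher and 0 lower at an unadjusted p under 0.05 against 4.09% and 2.7% of all tested genes. These were Rps25, a small subunit protein that viral internal entry sites need, with a log2 fold change of 0.11 ± 0.05 (SE, adjusted p = 0.724 by limma), and Rps27a, which is made as a fusion with ubiquitin, with 0.12 ± 0.05 (adjusted p = 0.724). The median over the members was 0.03 against 0.02 over all genes. Intervals lay within 1.5-fold in 79 of 79 members and in 67.3% of all tested genes, and 0 members and 0.438% of genes met the rule of the study. No overlap was found in 0 members, against 0.577% of genes on the higher and 0.433% on the lower side.

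In the PBMC-hCG group, some ribosomal protein genes rose by a small amount. Against IF, 8 of 79 members (10.1%) rose and 0 fell at an adjusted p under 0.05 by limma, where 7.61% of all tested genes rose and 5.99% fell, so the share that passed was near the background. More members were on the higher side than passed: 76 of 79 members, beside 10600 of 18706 tested genes. At an unadjusted p under 0.05, 36 members (45.6%) were higher and 1 lower, against 20.7% and 14.3% of all genes. The median log2 fold change was 0.12 over the members against 0.05 over all genes. Because the members move together and share the total of each library, these counts are not separate results. The median was 0.12 in the small and 0.13 in the large subunit, with 3 of 32 and 5 of 44 genes called. The sizes were small, with 78 of 79 intervals within 1.5-fold (55.3% of all tested genes) and 0 members past the rule of the study (2.31% of genes). The 5 PBMC-hCG mice had 66, 76, 74, 72 and 78 of the 79 members above the IF mean, the lowest being replicate 1. Some mice of other groups reached such counts too. PBMC replicate 4 had 72, control replicate 2 had 71, and control replicate 4 and IF replicates 1 and 3 had 69 each.

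Large subunit genes that rose were Rpl22, Rpl13a, Rpl3, Rpl5 and Rpl6l. Rpl22 (chr4:152324436-152334082), which is needed for the development of alpha-beta T cells, was at 336.6, 288.9, 339.3, 283.9 and 273.4 TPM in the IF mice and 322, 363, 377.2, 366.4 and 374.4 TPM in the PBMC-hCG mice. All but 1 of the PBMC-hCG mice, replicate 1 with 322 TPM, lay above every IF mouse. The log2 fold change was 0.25 ± 0.07 (SE, adjusted p = 0.0339 by limma). Rpl13a (chr7:45125563-45128745), which can leave the ribosome to silence inflammatory mRNAs, was at 1885, 1638, 1795, 1698 and 1718 TPM in IF and 1836, 2023, 2115, 2042 and 2071 TPM in PBMC-hCG. Replicate 1 of PBMC-hCG again lay within the IF range and the other 4 above it, with a log2 fold change of 0.21 ± 0.06 (adjusted p = 0.0313 by limma).

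Rpl3 (chr15:80077781-80083406), which reaches to the peptidyl transferase centre, was at 1902, 1803, 1852, 1786 and 1708 TPM in IF and 1949, 2086, 2246, 2021 and 2094 TPM in PBMC-hCG. The groups did not overlap, and the log2 fold change was 0.20 ± 0.06 (adjusted p = 0.0369 by limma). Rpl5 (chr5:107900508-107909005), which with Rpl11 inhibits Mdm2 (the inhibitor of p53), was at 1564, 1413, 1624, 1450 and 1456 TPM in IF and 1616, 1692, 1749, 1760 and 1756 TPM in PBMC-hCG. Only replicate 1 of PBMC-hCG fell within the IF range, below IF replicate 3, and the log2 fold change was 0.19 ± 0.06 (adjusted p = 0.0443 by limma). Rpl6l, a processed pseudogene by annotation, followed with 0.21 ± 0.07 (adjusted p = 0.0469 by limma) between 32.31 and 37.5 TPM on average, and its parent Rpl6 had 0.15 ± 0.06 (adjusted p = 0.0677 by limma).

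Small subunit genes that rose were Rps27a, Rps3 and Rps25. Rps27a (chr11:29545842-29548040) was at 2365, 2104, 2357, 2150 and 2156 TPM in IF and 2374, 2522, 2635, 2597 and 2508 TPM in PBMC-hCG. The lowest PBMC-hCG mouse lay just above the highest IF mouse, and the log2 fold change was 0.18 ± 0.05 (adjusted p = 0.0391 by limma). Rps3 (chr7:99477896-99483709), which lies at the mRNA entry of the small subunit, was at 1349, 1232, 1406, 1255 and 1257 TPM in IF and 1372, 1455, 1516, 1550 and 1476 TPM in PBMC-hCG. These ranges overlapped at 1 mouse of each group, IF replicate 3 and PBMC-hCG replicate 1, with a log2 fold change of 0.18 ± 0.06 (adjusted p = 0.0424 by limma). For Rps25 (chr9:44407714-44410406), the IF mice were at 1875, 1713, 1804, 1677 and 1718 TPM and the PBMC-hCG mice at 1842, 1966, 1994, 2011 and 2010 TPM. Again 4 of the 5 PBMC-hCG mice lay above the whole IF range, with a log2 fold change of 0.16 ± 0.05 (adjusted p = 0.0407 by limma). Groups without overlap were found in 7 members on the higher and 0 on the lower side, against 5.05% and 2.19% of all genes, namely Rpl3, Rps27a, Rpl19, Rpl27, Rps12, Rps24 and Rps29.

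**Figure D3:**
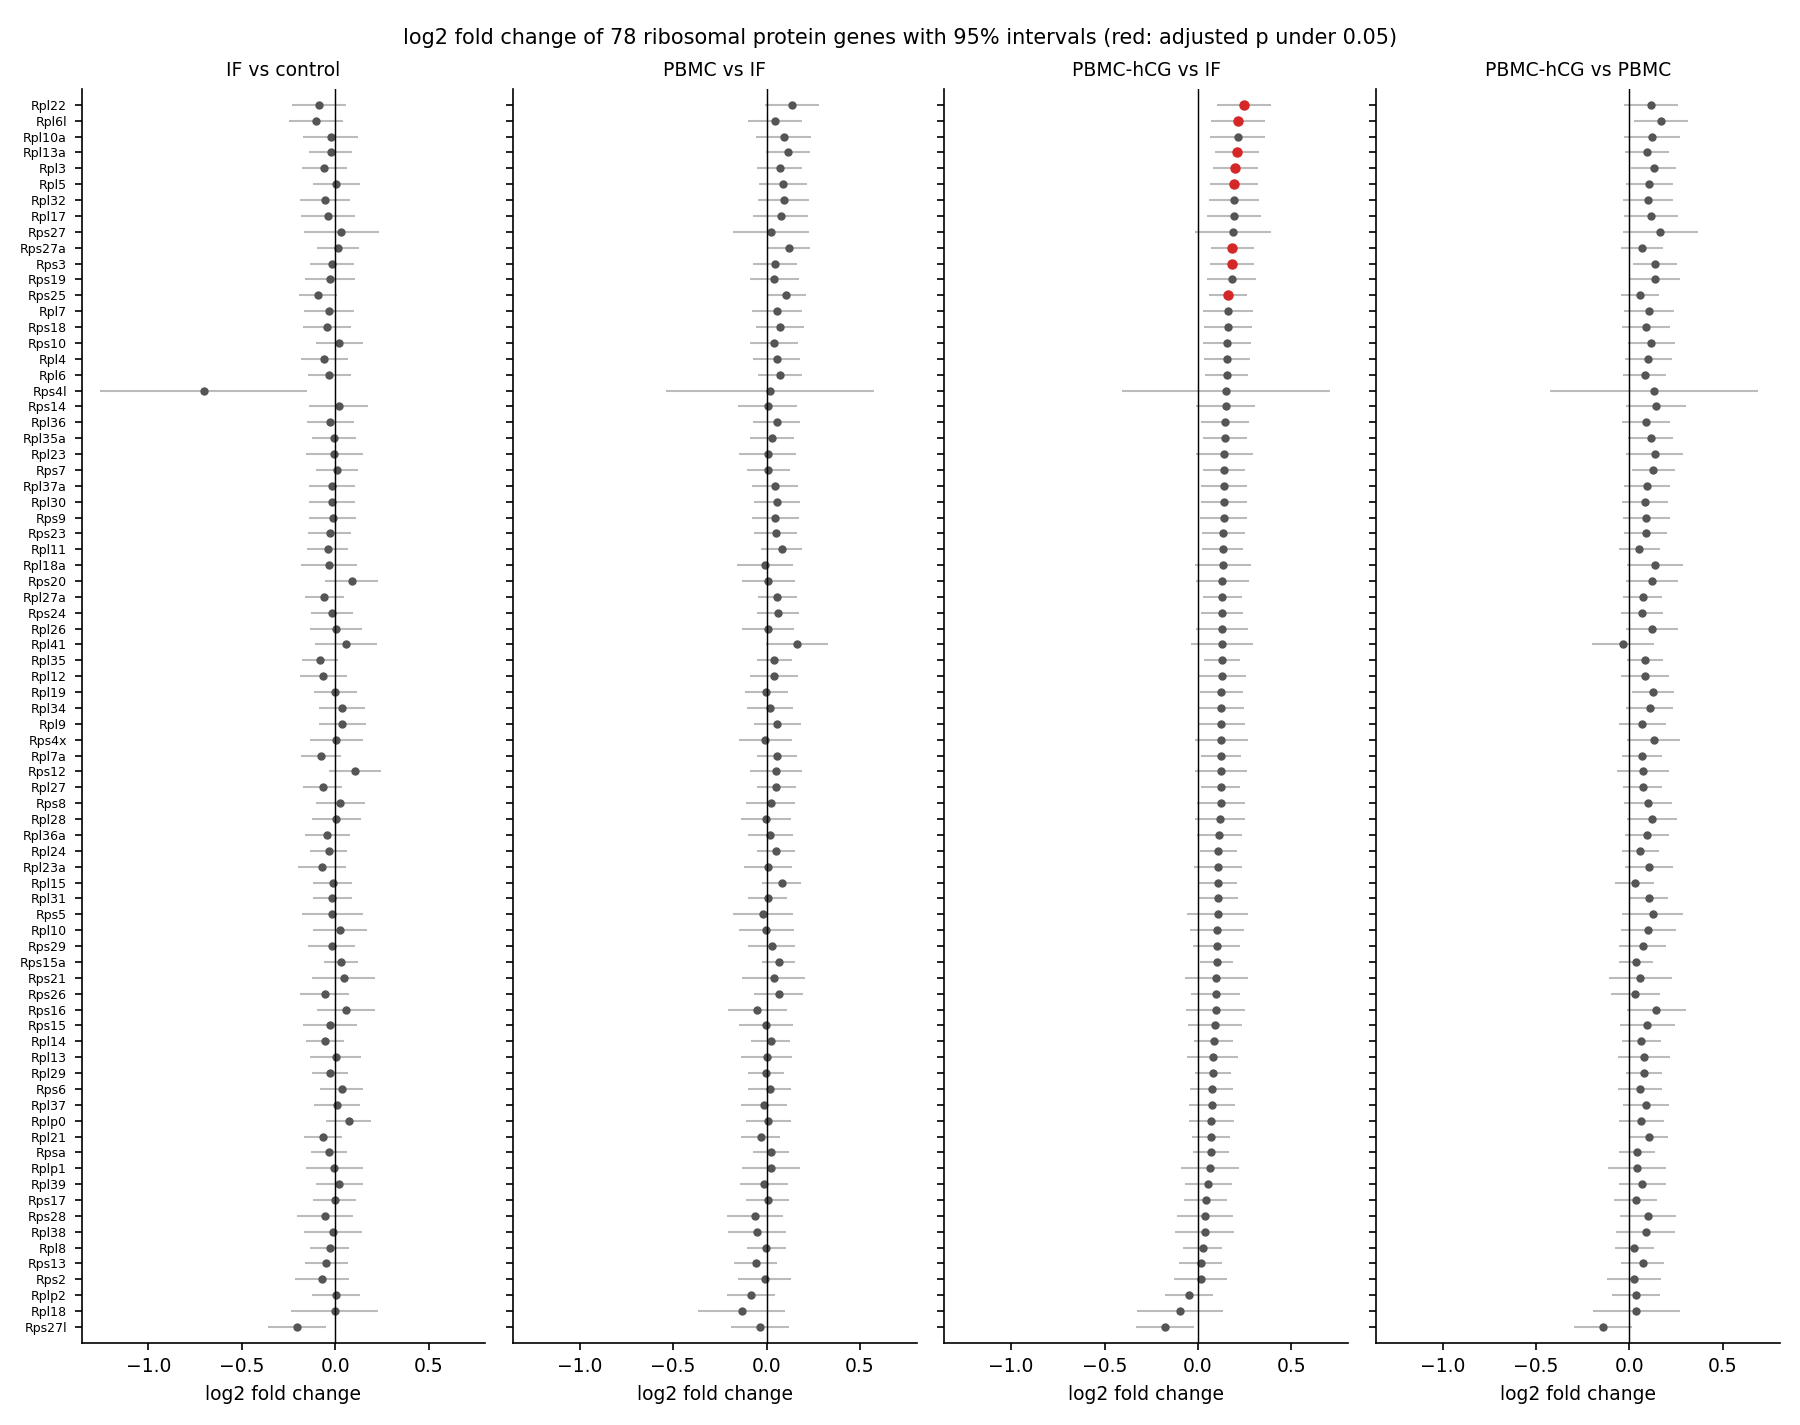
log2 fold change of each of 78 of the 79 ribosomal protein genes (point) with its 95% interval (line) in 4 comparisons, ordered by the change from IF to PBMC-hCG; red points passed an adjusted p under 0.05. In PBMC-hCG vs IF nearly all points lie right of 0 by a small amount, with Rps27l at the opposite end, while in IF vs control the points lie around 0 apart from Rps4l.

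The calls in this comparison were close to the threshold, with adjusted p between 0.0313 and 0.0469. Leaving out 1 mouse gave 0 calls in 7 of 10 cases, which were each PBMC-hCG mouse but replicate 1 and each IF mouse but replicates 1 and 3. It gave 7 calls without IF replicate 1, 24 without IF replicate 3 and 16 without PBMC-hCG replicate 1, whereas the median log2 fold change stayed between 0.11 and 0.14. The share of all tested genes that passed in these fits was not counted, so these counts cannot be read as particular to the members. The calls also depended on the scale: 1 member passed after median-of-ratios scaling, with a median of 0.08 over the members. When each library was centred on the median of the members, 0 rose and 1 fell. Centring removes a shared shift of the members by construction, so it cannot show whether they rose together. Some marker lists moved in the same comparison. Red cell markers fell in 2 of 5 genes (summed 342 to 878 TPM in PBMC-hCG and 640 to 1800 TPM in IF), myometrium markers passed in 0 of 7 (5030 to 6340 and 6250 to 7720 TPM), epithelium markers rose in 1 of 10 (1150 to 1520 and 1030 to 1370 TPM), stroma markers in 1 of 6 (7880 to 9000 and 7350 to 9090 TPM) and endothelium markers in 1 of 5 (523 to 590 and 473 to 510 TPM). Plasma cell markers fell in 1 of 5 (441 to 818 and 469 to 2510 TPM), and lymphocyte (0 of 8), myeloid (0 of 7), ovary and oviduct (0 of 4) and proliferation markers (0 of 9) did not pass. Their part in the result was not tested.

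No member passed between cells cultured with and without hCG. Between PBMC-hCG and PBMC, 0 of 79 members passed by limma, as did 0.00535% of all tested genes in each direction, and 7 members were higher and 0 lower at an unadjusted p under 0.05 against 8.66% and 7.51% of all genes. The median over the members was 0.09 against 0.02 over all genes, and 77 members were on the higher side, beside 10202 of 18706 tested genes. Of the members, 78 intervals lay within 1.5-fold (61.7% of all tested genes), and 0 met the rule of the study (0.893% of genes). Among the 7 with an unadjusted p under 0.05, the largest were Rpl6l with 0.17 ± 0.07, Rps19, a small subunit protein mutated in Diamond-Blackfan anaemia, with 0.14 ± 0.06, and Rps3 with 0.13 ± 0.06, at adjusted p of 0.284, 0.3 and 0.288 by limma. Rps19 was at 2558, 2624, 2577, 2755 and 2453 TPM in PBMC and 2663, 2903, 3018, 2771 and 2918 TPM in PBMC-hCG. Only PBMC-hCG replicate 1 lay within the PBMC range. No overlap on the higher side was found in 2 members, among them Rpl21 (1.99% of all genes), and 0 lay so on the lower side (1.47%).

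Against control, 1 member passed in PBMC and 12 in PBMC-hCG. These comparisons share the control libraries with that of IF and are given beside it. In PBMC, 0 members rose and 1 fell (Rps27l), against 12.8% and 6.7% of all tested genes, and the median log2 fold change was 0.01 against 0.05. In PBMC-hCG, 11 members rose and 1 fell (Rps27l again), against 20.2% and 11.6% of all tested genes, with a median of 0.11 against 0.08. The 11 were 13.9% of the members, beside the background of 20.2%. At an unadjusted p under 0.05, 4 were higher and 2 lower in PBMC (20.1% and 11.6% of genes) and 25 higher and 1 lower in PBMC-hCG (26.6% and 15.6%). No overlap was found in 2 higher and 0 lower members in PBMC (8.65% and 4.08% of genes) and in 4 higher and 1 lower in PBMC-hCG (13.2% and 5.07%). Intervals within 1.5-fold were held by 78 members in PBMC (56.4% of tested genes) and 78 in PBMC-hCG (50.3%), and 0 members met the rule of the study in either (3.34% and 4.74% of genes). A direct test of PBMC-hCG with PBMC is the one above, in which 0 passed. Marker lists moved too, and their part was not tested. In PBMC-hCG, endothelium rose in 5 of 5 genes, epithelium in 5 of 10 (2 fell) and stroma in 2 of 6 (1 fell). Lymphocyte markers rose in 3 of 8 and myeloid in 3 of 7. Myometrium fell in 5 of 7, plasma cells in 3 of 5 (1 rose) and proliferation in 2 of 9. Red cells fell in 1 of 5, and ovary and oviduct in 1 of 4. In IF, most passed in endothelium (5 of 5 rose) and epithelium (6 of 10 rose, 2 fell). The 12 calls of PBMC-hCG became 41 without control replicate 2, and 5 without control replicate 1, 6 without control replicate 3, 4 without control replicate 5, 7 when PBMC-hCG replicate 3 or 4 was left out and 6 when its replicate 5 was. No share of all tested genes was counted in these fits, so the changes in count cannot be read as particular to the members.

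Among members that passed in PBMC-hCG against control, Rps12, Rps20 and Rps27a had the largest rises. Rps12 (chr10:23785183-23787383), the second most abundant member, was at 5156, 5137, 5435, 5729 and 4736 TPM in control, 5778, 5520, 5686, 5645 and 5558 TPM in IF, 5777, 6108, 5779, 6189 and 5360 TPM in PBMC and 6054, 5974, 6180, 6061 and 6422 TPM in PBMC-hCG. PBMC-hCG lay above control and IF without overlap, and the log2 fold change against control was 0.23 ± 0.07 (adjusted p = 0.0129 by limma). The IF and control mice overlapped at 1 control mouse, replicate 4, with 0.11 ± 0.07 (adjusted p = 0.27 by limma). Rps20, which anchors the head of the small subunit, was at 400.3, 490.1, 440.3, 439.8 and 368.7 TPM in control and 448.4, 509.1, 500.1, 517.5 and 504.2 TPM in PBMC-hCG. Control replicate 2 and PBMC-hCG replicate 1 overlapped with the other group, and the log2 fold change was 0.22 ± 0.07 (adjusted p = 0.0193 by limma). Rps27a had 0.20 ± 0.05 (adjusted p = 0.00952 by limma), and its 5 control mice (2106 to 2287 TPM) lay below all PBMC-hCG mice.

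**Figure D4:**
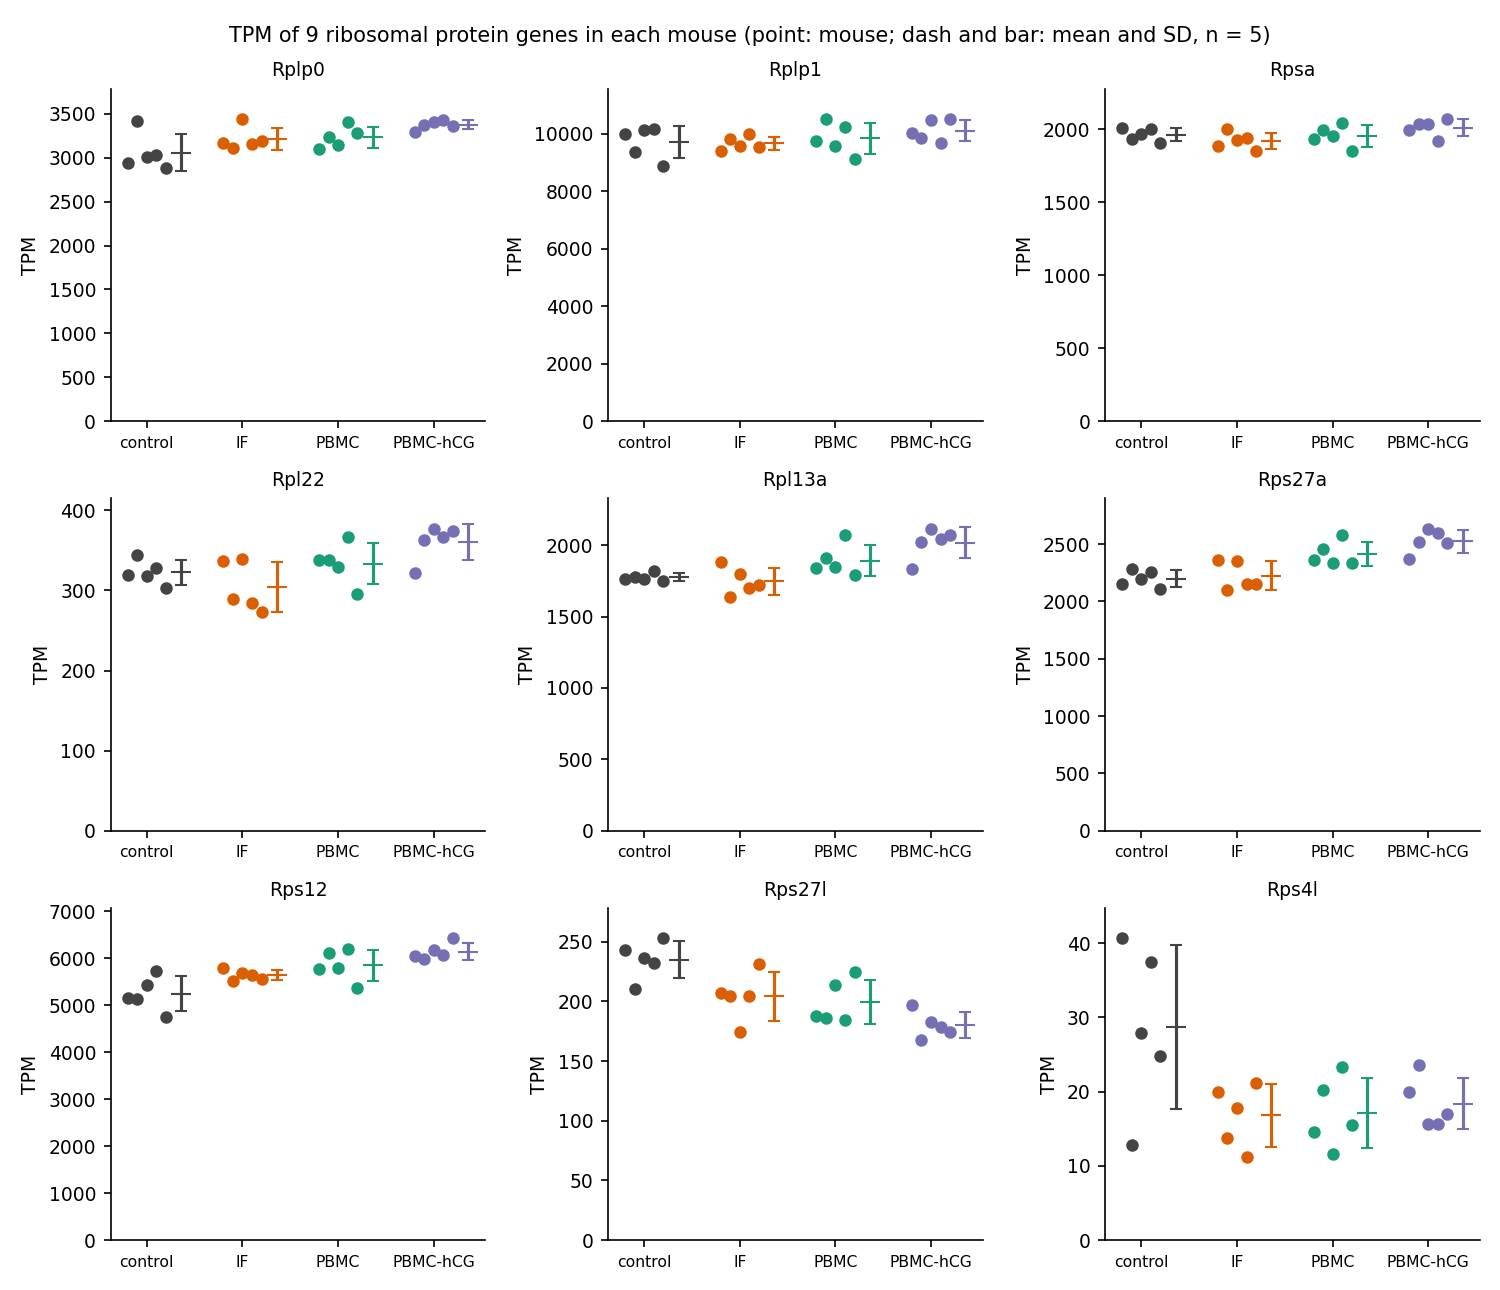
TPM of 9 ribosomal protein genes in each of 20 mice; points are mice, and dashes with bars are the mean and SD of 5 mice, on axes that start at 0. Rplp1 and Rpsa are nearly level across groups, and Rplp0 has a mean of 3059 TPM in control and 3374 TPM in PBMC-hCG. Rpl22, Rpl13a, Rps27a and Rps12 are higher in PBMC-hCG, Rps27l falls from control to PBMC-hCG, and Rps4l is spread widest in control.

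The P stalk genes did not pass in any of the 6 comparisons, although Rplp0 and Rplp2 did under some alternatives. Rplp0 (chr5:115559467-115563729), the base of the stalk and the PCR reference, was at 2944, 3422, 3008, 3036 and 2883 TPM in control, 3165, 3107, 3438, 3161 and 3187 TPM in IF, 3099, 3235, 3148, 3405 and 3277 TPM in PBMC and 3294, 3373, 3410, 3431 and 3363 TPM in PBMC-hCG. Apart from replicate 2, all control mice lay below the mice of the other groups. Its log2 fold change was 0.07 ± 0.06 in IF against control (adjusted p = 0.412 by limma), 0.07 ± 0.06 in PBMC-hCG against IF (adjusted p = 0.383) and 0.14 ± 0.06 in PBMC-hCG against control (adjusted p = 0.0617), with a 95% interval of 0.02 to 0.26 in the last. In IF against control it passed in 1 of 22 alternatives, quantile normalization, with 0.126 (adjusted p = 0.0327 by limma). In PBMC-hCG against control Rplp0 passed in 6 of 22, among them the fit without control replicate 2 with 0.185 (adjusted p = 0.00566 by limma). On TPM centred on the median of the members it was 0.0112 (adjusted p = 0.902 by limma), a change relative to the other members only. Gapdh, the glycolytic enzyme used beside it, had -0.28 ± 0.14 in PBMC-hCG against IF (adjusted p = 0.166 by limma) and lay at 539, 594, 424, 581 and 696 TPM in IF and 528, 447, 456, 406 and 482 TPM in PBMC-hCG. The 2 reference genes stood on opposite sides of 0 in that comparison, and neither passed.

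Rplp1 and Rplp2, the acidic proteins of the stalk tip, overlapped between all groups. Rplp1 (9665 to 10490 TPM in PBMC-hCG and 9402 to 9976 TPM in IF) had 0.06 ± 0.07 (adjusted p = 0.566 by limma). Rplp2 (4875 to 5252 TPM in PBMC-hCG and 4949 to 5441 TPM in IF) was on the lower side with -0.05 ± 0.06 (adjusted p = 0.601 by limma), 1 of only 3 members below 0 there, beside Rpl18 and Rps27l. Rpsa, the small subunit protein also known as the laminin receptor, was steady with a within-group coefficient of variation of 3.02%. It was at 1852 to 2001 TPM in IF and 1918 to 2070 TPM in PBMC-hCG, with 0.07 ± 0.05 (adjusted p = 0.306 by limma). On TPM centred on the median of the members, Rplp0, Rplp1 and Rpsa were on the lower side in this comparison (-0.0773, -0.0862 and -0.0819), and Rplp2 passed with -0.198 ± 0.06 (adjusted p = 0.043 by limma). These centred values are relative to the members, whose shared shift is removed by construction.

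Rps27l went the other way from its family. It was at 242.9, 210.6, 236.3, 232.3 and 252.9 TPM in control, 207.1, 204.8, 174, 204.4 and 231.4 TPM in IF, 188.1, 186.1, 214, 184.3 and 224.7 TPM in PBMC and 197, 168, 183, 178.8 and 174.4 TPM in PBMC-hCG. All PBMC-hCG mice lay below all control mice, and IF and PBMC lay between and overlapped with both. The log2 fold change against control was -0.20 ± 0.07 in IF (adjusted p = 0.0541 by limma), -0.24 ± 0.07 in PBMC (adjusted p = 0.0288) and -0.38 ± 0.07 in PBMC-hCG (adjusted p = 0.000822), and PBMC-hCG against IF was -0.18 ± 0.07 (adjusted p = 0.0997). In IF against control Rps27l passed in 6 of 22 alternatives, with adjusted p down to 0.00109 by limma under quantile normalization, and among them without control replicate 2 (-0.24 ± 0.07, adjusted p = 0.0212) and without IF replicate 5 (-0.25 ± 0.07, adjusted p = 0.0237). In PBMC-hCG against control, all 22 alternative fits of this gene kept it past the threshold, with -0.52 to -0.32, including those without each mouse. In PBMC against control the call of Rps27l was lost in 8 of 22 alternatives, with adjusted p up to 0.106 by limma. It was lost without control replicate 1, 3 or 5 or PBMC replicate 1, 2 or 4, with adjusted p between 0.0538 and 0.0758 by limma. The others were the fit of only the 2 groups and centring on the median of the members. Its paralog Rps27 was on the higher side in PBMC-hCG against control, with 0.22 ± 0.10 (adjusted p = 0.0889 by limma).

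Rps4l, a transcribed processed pseudogene, had the lowest level and the widest spread of the members, with a within-group coefficient of variation of 32.6%. It was at 40.67, 12.75, 27.91, 37.5 and 24.86 TPM in control and 20.01, 13.78, 17.83, 11.15 and 21.22 TPM in IF. Control replicate 2 lay below the IF median, and the other control mice lay above all IF mice. The log2 fold change was -0.70 ± 0.27 (adjusted p = 0.0649 by limma), and without control replicate 2 it was -0.97 ± 0.22 (adjusted p = 0.00299 by limma). The PBMC mice had 11.54 to 23.34 TPM and the PBMC-hCG mice 15.63 to 23.57 TPM, both within the range of the IF and control mice together.

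Ribosomal protein genes whose symbols do not follow the rule were counted apart. Of 8 such genes, 4 encode core parts of the ribosome, among them Fau, Rps3a1 and Rack1, and Rpl36al, Rpl22l1, Rpl7l1 and Rsl24d1 are paralogs or assembly factors. In PBMC-hCG against IF, 0 of the 8 rose and 3 fell, namely Rpl36al (-0.26 ± 0.07, adjusted p = 0.0347 by limma), Rpl7l1 (-0.37 ± 0.11, adjusted p = 0.039) and Rsl24d1 (-0.225 ± 0.07, adjusted p = 0.0397). Rpl36al was at 459, 472, 440, 492 and 520 TPM in IF and 444, 377, 374, 384 and 407 TPM in PBMC-hCG, where only replicate 1 reached the IF range. The 4 core genes had 0.04 to 0.20 and did not pass, the highest being Fau with 0.20 ± 0.08 (adjusted p = 0.0934 by limma). Rpl22l1 did not pass either, at 395 to 517 TPM in IF and 427 to 496 TPM in PBMC-hCG. In IF against control and PBMC against IF 0 of the 8 passed. Beside these counts, 7.61% of all tested genes rose and 5.99% fell in PBMC-hCG against IF, and 13.4% and 8.53% in IF against control.

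Genes that build ribosomes fell in 4 of the 6 comparisons and passed in 0 cases in the others. Of 36 ribosome biogenesis factors (processing and assembly factors of the nucleolus), 0 rose and 9 fell in IF against control, 0 passed in PBMC against IF, and 0 rose and 28 fell in PBMC-hCG against IF (limma, adjusted p under 0.05). The medians were -0.19, -0.21 and -0.58 against 0.02, 0.02 and 0.05 over all genes. The falls were 25% of the list in IF against control and 77.8% in PBMC-hCG against IF. Of all tested genes, 8.53% and 5.99% fell there. In PBMC-hCG against PBMC 0 passed, with 24 lower at an unadjusted p under 0.05 and a median of -0.36. Against control, 18 fell in PBMC (50%, median -0.41) and 34 in PBMC-hCG (94.4%, median -0.84). Of all tested genes, 6.7% and 11.6% fell in these comparisons. The list summed to a median of 2321 TPM in control, 1899 in IF, 1499 in PBMC and 1224 in PBMC-hCG, so the members outweighed it by 88.17, 102.7, 133.7 and 174.4 times at the median.

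Nop56, a core protein of box C/D small nucleolar ribonucleoproteins, was at 117, 74.4, 104, 111 and 120 TPM in control, 71.3, 78.6, 56.4, 86 and 115 TPM in IF, 55.7, 61.6, 69.2, 46.4 and 83.7 TPM in PBMC and 65.2, 43.5, 33.8, 33.7 and 40.6 TPM in PBMC-hCG. All PBMC-hCG mice lay below all control mice, and PBMC-hCG replicate 1 was the only one within the IF range. The log2 fold change was -0.91 ± 0.20 against IF (adjusted p = 0.0259 by limma) and -1.30 ± 0.20 against control (adjusted p = 0.000119). Rrp12, which takes part in the export of both subunits, fell most against IF, at 10.9, 9.89, 7.57, 14.1 and 20 TPM in IF and 10.2, 4.52, 4.12, 3.13 and 4.66 TPM in PBMC-hCG, with a log2 fold change of -1.26 ± 0.34 (adjusted p = 0.0313 by limma). Bysl, a factor of small subunit maturation, followed with -1.06 ± 0.26 (adjusted p = 0.0287 by limma). The count against IF was 0 in the same 7 of 10 fits that left out a mouse as for the members, with medians between -0.67 and -0.50, and it was 27 when IF replicate 1 was left out and 31 when IF replicate 3 or the first PBMC-hCG mouse was. In PBMC-hCG against control it stayed at 34 to 35, and in PBMC against control it was 13 to 25 (25 without control replicate 2). In IF against control the 9 calls became 13 without control replicate 2, 4 without control replicate 1 or 5 or IF replicate 1 or 3, and 5 without control replicate 4 or IF replicate 4. For these fits too, the share of all tested genes was not counted.

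Within each group, the mouse with the lowest share of ribosomal protein mRNA had the highest sum of biogenesis factors in 4 of 4 groups (control replicate 5, IF replicate 5, PBMC replicate 5 and PBMC-hCG replicate 1). The mouse with the highest share had the lowest sum in 3 of 4 groups (control replicate 2, IF replicate 3 and PBMC replicate 4). The labels give no pairing of mice by replicate number, and both sums share the total of their library.

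**Figure D5:**
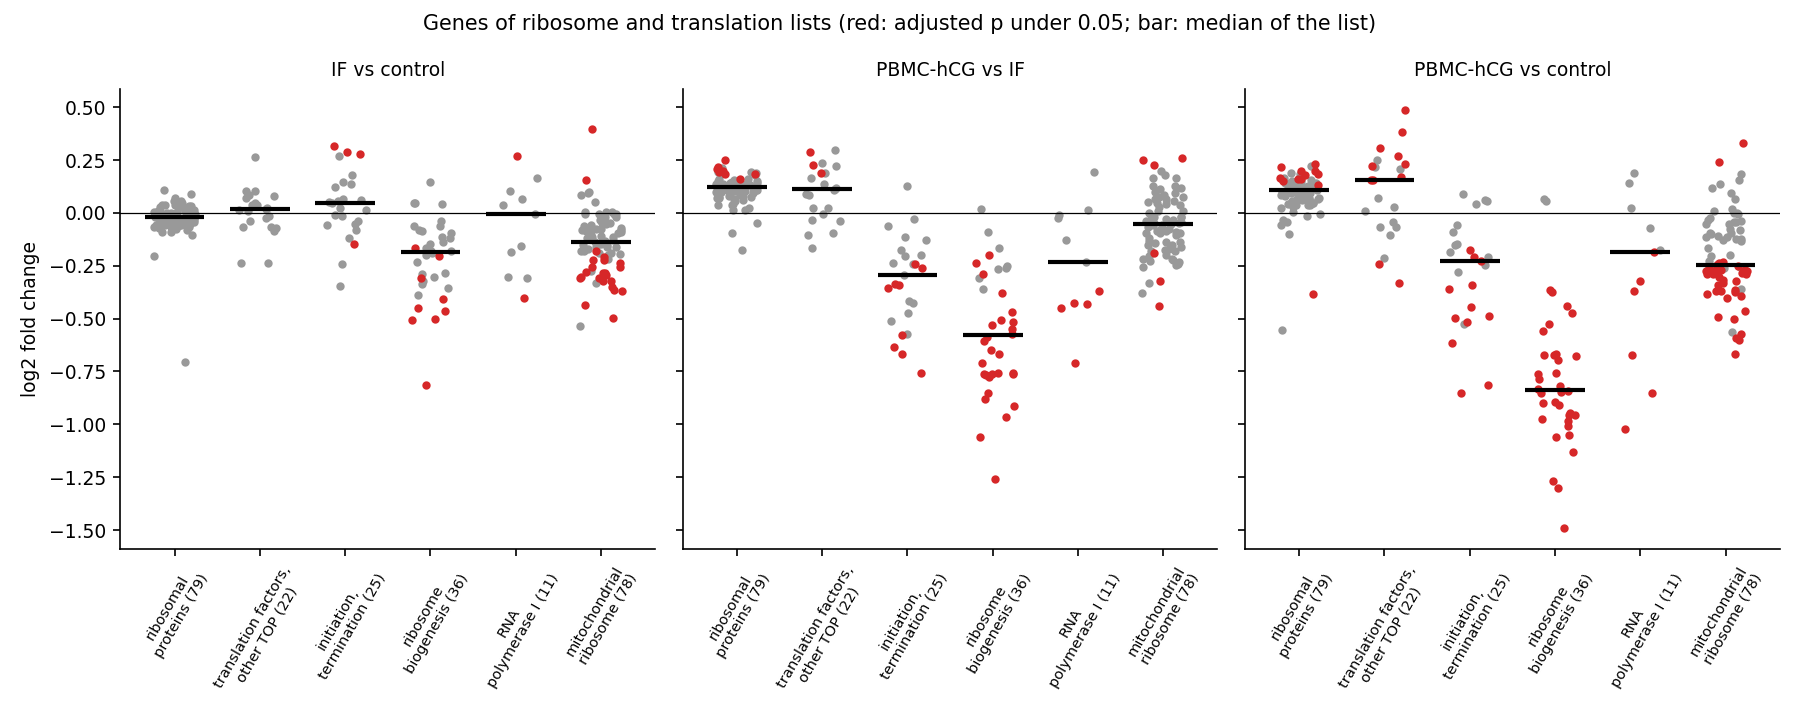
log2 fold change of each gene (point; red where the adjusted p was under 0.05) in 6 lists of the ribosome and translation, with the median of each list as a bar, in 3 comparisons that share IF or control libraries. The ribosomal proteins lie narrowly around 0.12 and 0.11 in the comparisons of PBMC-hCG, the ribosome biogenesis factors around -0.58 and -0.84.

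Translation factors divided by their class. Beside their counts, 13.4% of all tested genes rose and 8.53% fell in IF against control. In PBMC-hCG the background was 7.61% and 5.99% against IF, and 20.2% and 11.6% against control. Of 22 translation factors and other TOP mRNAs, which share the pyrimidine start with the members, 0 passed in IF against control or PBMC against IF, and 3 rose and 0 fell in PBMC-hCG against IF with a median of 0.11. These were Eif4b, a partner of the Eif4a helicase (0.29 ± 0.08, adjusted p = 0.0369 by limma), Eif3e (0.225 ± 0.06, adjusted p = 0.0316) and Eif3h (0.19 ± 0.06, adjusted p = 0.0435). Eif4b was at 332, 308, 389, 299 and 268 TPM in IF and 354, 396, 400, 401 and 387 TPM in PBMC-hCG, where IF replicate 3 lay within the PBMC-hCG range. Against control, 9 of the 22 rose and 2 fell in PBMC-hCG and 1 rose in PBMC, with Vim (0.49 ± 0.10, adjusted p = 0.0011 by limma) and the elongation factor Eef2 (0.38 ± 0.11, adjusted p = 0.00963) rising most and Npm1, a nucleolar chaperone, falling most (-0.33 ± 0.11, adjusted p = 0.0306). Of 25 translation initiation and termination factors not counted as TOP mRNAs, 0 rose and 9 fell in PBMC-hCG against IF (median -0.29), led by Abce1, which recycles ribosomes (-0.76 ± 0.21, adjusted p = 0.0325 by limma), and Eif4e, which binds the cap (-0.67 ± 0.21, adjusted p = 0.0434). In IF against control 3 of them rose and 1 fell, with Eif1 highest (0.31 ± 0.08, adjusted p = 0.0116 by limma).

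Of 11 subunits and factors of RNA polymerase I, which transcribes ribosomal RNA, 1 rose and 1 fell in IF against control, and 0 rose and 5 fell in PBMC-hCG against IF, most of all Polr1e (-0.71 ± 0.18, adjusted p = 0.0287 by limma) and Polr1b (-0.45 ± 0.12, adjusted p = 0.0292). Myc, the regulator of many biogenesis genes, fell in IF against control by 1.04 on the log2 scale (SE 0.09, adjusted p = 5.14e-07 by limma). It was at 128, 113, 108, 120 and 96 TPM in control and 54.7, 56.8, 60, 52.1 and 50.1 TPM in IF, without overlap, and at 53.6, 40.4, 39.8, 50.3 and 44.9 TPM in PBMC-hCG, where 2 mice lay within the IF range and 3 below it. Of the 10 genes of the MYC network, 2 others (Mxd1 and Mycn) rose in IF against control, and 2 rose and 0 fell in PBMC-hCG against IF, Mxi1 (0.75 ± 0.22, adjusted p = 0.0362 by limma) and Mxd4 (0.27 ± 0.08, adjusted p = 0.0439), both antagonists of Myc. Of 18 genes of the mTORC1 pathway and translational control, 3 rose and 1 fell in IF against control and 1 rose and 2 fell in PBMC-hCG against IF. The last were Sesn1, an inhibitor of mTORC1 (0.84 ± 0.26, adjusted p = 0.0418 by limma), and the TOP-binding Larp1 (-0.315 ± 0.10, adjusted p = 0.0443) and Rps6kb2, a kinase of ribosomal protein S6 (-0.22 ± 0.07, adjusted p = 0.0411). Of 13 small nucleolar RNA host genes, 0 rose and 1 fell in IF against control, and 0 rose and 2 fell in PBMC-hCG against IF, Snhg15 (-0.86 ± 0.15, adjusted p = 0.02 by limma) and Snhg17 (-0.49 ± 0.12, adjusted p = 0.0287). The background in all tested genes was 13.4% higher and 8.53% lower in IF against control, and 7.61% and 5.99% in PBMC-hCG against IF.

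Genes of the mitochondrial ribosome gave other counts. Of all tested genes, 13.4% rose and 8.53% fell in IF against control. In PBMC-hCG, 7.61% rose and 5.99% fell against IF, and 20.2% and 11.6% against control. Of 78 mitochondrial ribosomal protein genes, 2 rose (2.56%) and 21 fell (26.9%) in IF against control (median -0.14), where 0 of the 79 cytosolic members passed. Among those that passed, Mrpl42 (-0.50 ± 0.08, adjusted p = 0.000321 by limma) fell most and Mrps6 (0.40 ± 0.10, adjusted p = 0.0089) rose most. In PBMC-hCG against IF 3 rose and 3 fell (3.85% each, below all tested genes, median -0.05). Against control 2 rose (2.56%) and 36 fell (46.2%, median -0.25). Nuclear-encoded subunits of the respiratory chain, 80 in number, gave 0 rises and 15 falls (18.8%) in IF against control, led among those that passed by Ndufs7 (-0.33 ± 0.08, adjusted p = 0.00569 by limma). In PBMC-hCG against IF these subunits gave 3 rises (3.75%, below all tested genes) and 0 falls, led by Cox7a2l (0.41 ± 0.12, adjusted p = 0.0347 by limma). None of the 13 mitochondrially encoded genes passed in these 2 comparisons. Their sum was 4.72% ± 0.279 of all TPM in control, 4.74% ± 0.293 in IF, 4.99% ± 0.178 in PBMC and 5.06% ± 0.214 in PBMC-hCG (SD, n = 5). Among 14 further reference genes, 2 rose and 2 fell in IF against control, among them Gusb (-0.58 ± 0.08, adjusted p = 2.31e-05 by limma) and Ywhaz (0.30 ± 0.09, adjusted p = 0.0159), and 0 rose and 2 fell in PBMC-hCG against IF (Tfrc and Ywhaz).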

How the data were processed

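The authors deposited TPM values per gene for 20 libraries of poly(A) mRNA (stranded kit). Trimmomatic, HISAT2, StringTie and mm10 are named in the processing notes of the submitters, and their versions and the strand setting of the counting are not given in the sources used here. Each column adds up to 999988 to 999999, and 22702 to 24097 genes are above 0 in a library. TPM keeps no depth, so the depth is unknown and no counting interval is given. The study tested counts with edgeR after TMM scaling, which TPM does not allow.

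Here, log2(TPM + 0.1) of the 18706 genes above 0 TPM in all 20 libraries was fitted with limma 3.58.1 (variance trend, 4 group means in 1 fit, R 4.3.3, version 1.17.8 of data.table), with Benjamini-Hochberg adjustment over all 18706 genes and a threshold of 0.05. Fold changes are on the log2(TPM + 0.1) scale, which understates changes of low genes, and ± beside a fold change is the SE. The procedure was tested on simulated data in which each gene varied independently. That test does not cover small shifts of genes that move together, such as the members. Groups came from the labels, 5 mice each. The share of a group of genes is its summed TPM. Promoter windows came from RefSeq (GRCm38.p6), matched by NCBI gene ID for 57 of 79 members (9 with several starts, of which the first was used), and gene types and exons from GENCODE on the same build. Python 3.11.15, pandas 2.3.3 and matplotlib 3.10.9 were used for these and the figures.

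The members and all lists were chosen with earlier results of these data known, from general knowledge of the genes, and no p is given for a list. Named were Rplp0, Rpsa, Rplp1, Rplp2, the 3 highest and 3 lowest members, paralogs, up to 8 members (3 in other comparisons than IF vs control and PBMC-hCG vs IF) with the largest change each way among those that passed, or 3 among unadjusted p under 0.05 where none did, the 3 best and 3 least correlated members, and up to 2 rises and 2 falls of each pathway list. Other genes named (Rpl6, Rps27, Rpl18, Rpl21, the members without overlap, Fau, Gapdh, Nop56, Mxd1 and Myc per mouse) were chosen after their values were seen. A few genes, 1 of them a member that 2 plots leave out, are not reported by name here. Alternatives were other pseudocounts, filters, scalings, fits and each mouse left out.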

Additional observations from a re-analysis of the deposited data

Results flagged for a closer look

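Of 96 groups of 5 mice examined, 84 were for 21 members and 12 for 3 sums or ratios. In 8 of them, all groups of the members, a mouse stood far from the other 4 (gap over range above 0.71). The members move together, so these groups are not separate draws. The count of 8 therefore cannot be set against a chance rate. Rplp0, the base of the P stalk, was at 3422 TPM in control replicate 2 against 2883 to 3036 TPM in the other controls, and at 3438 TPM in IF replicate 3 against 3107 to 3187 TPM. Rplp2, at the tip of the stalk, was at 5248 TPM in PBMC replicate 4 against 4739 to 4881 TPM. Rpl41 was low in control replicate 2, with 4118 TPM against 5023 to 5256 TPM. Replicate 1 was the low mouse of the PBMC-hCG group for 3 members, with Rps25 at 1842 TPM (others 1966 to 2011), Rpl22 at 322 TPM (others 363 to 377.2) and Rps20 at 448.4 TPM (others 500.1 to 517.5). Rps20 was also high in IF replicate 3, with 492.8 TPM against 439.3 to 446.9 TPM.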

How the results depend on the processing

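The alternatives other than leaving out a mouse were applied to the counts of members called, the summed shares and the median correlation of members. Of these values, 48 stayed within 1.5 times the count or 1 SD of the share or correlation, and 34 moved. In IF vs control (0 called) there were 3 with quantile normalization, 1 with median-of-ratios scaling, 1 with TPM rescaled without the members and mitochondrially encoded genes, 3 with array weights and 0 to 2 without 1 mouse. In PBMC-hCG vs IF (8 called) there were 18 among genes with a mean of at least 1 TPM, 0 without a filter on low values, 3 with quantile normalization, 1 with median-of-ratios scaling, 14 rescaled, 1 (lower) centred on the median of the members, 2 with only the 2 groups, 54 with array weights and 0 to 24 without 1 mouse. In PBMC-hCG vs PBMC (0 called) array weights gave 3 and leaving out a mouse 0, as in PBMC vs IF. In PBMC vs control (1 called) there were 4 with the mean of 1 TPM, 3 with quantile normalization, 0 centred, 2 without the variance trend, 0 with only the 2 groups, 7 with array weights and 0 to 2 without 1 mouse. In PBMC-hCG vs control (12 called) there were 21 with the mean of 1 TPM, 7 without a filter, 1 with median-of-ratios scaling, 20 rescaled, 5 (all lower) centred, 3 with only the 2 groups, 50 with array weights and 4 to 41 without 1 mouse. The cause was not tested. The share of all tested genes that passed was not counted under the alternatives, so these counts cannot be read as particular to the members. Rescaling put the median of all genes at 0.108 in PBMC-hCG vs control, and centring put it at -0.1 in PBMC-hCG vs IF. Centring removes a shared shift of the members by construction, so its values are relative to the members.

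Without the 5 highest members the share was 17.1% in control, 16.88% in IF, 17.17% in PBMC and 18.3% in PBMC-hCG, and of a total without mitochondrially encoded genes it was 20.87% in IF, 21.31% in PBMC and 22.6% in PBMC-hCG. Without 1 mouse it was 19.65 to 20.35%, 19.62 to 20.06%, 19.96 to 20.43% and 21.33 to 21.72% in the 4 groups in that order. Some directions that did not pass the test turned. Rplp1 in IF vs control turned to 0.0498 with quantile normalization and 0.0125 when centred (-0.0355 to 0.0131 without 1 mouse), Rplp2 to -0.0277 with median-of-ratios scaling (-0.0139 to 0.0388 without 1 mouse) and Rpsa to 0.016 with quantile normalization. In PBMC-hCG vs IF, Rplp0 turned to -0.00315 with quantile normalization and -0.0773 when centred, Rplp1 to -0.00566 and -0.0862, and Rpsa to -0.0819 when centred. Centring on the members, the counts of biogenesis factors, the alternatives of Rplp0 in PBMC-hCG vs control and the shares without a mouse were chosen after seeing the data.

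With the replicate number as a block, 1 member passed in IF vs control, 6 in PBMC-hCG vs IF, 9 in PBMC-hCG vs control, 1 in PBMC vs control and 0 in the others. The labels do not say whether the numbers pair the mice. Deviations of same-numbered mice correlated above 0.1 in 8 of 30 pairs over all genes (-0.247 to 0.457). Over the members they did so in 11 of 30 (-0.738 to 0.603). Replicate 5 correlated over all genes at 0.396 between IF and control, 0.457 between PBMC and IF and 0.272 between PBMC and control. Whether these mice shared a batch was not tested. The depth of the libraries is unknown from TPM, so its limits cannot be given.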
